A study of Homo sapiens with 10 samples.

Results

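The metallothioneins and their zinc regulators were followed as 8 genes, named by symbol, of the 57993 gene symbols in the deposited tables: the metallothioneins MT1E, MT1F, MT1G, MT1M, MT1X and MT2A, the zinc-sensing transcription factor MTF1 and the zinc exporter SLC30A1. The rule is a list of symbols and sets no threshold on a level or a test. Total RNA was sequenced from HCT116 cells, a human colorectal carcinoma line, in 10 libraries. KDM5A-/- HCT116 cells, in which the gene of the histone demethylase KDM5A is disrupted on both copies, received a plasmid with mutant KDM5A (2 libraries), a plasmid with wild-type KDM5A (3 libraries) or the empty vector (3 libraries), and parental HCT116 cells received the empty vector (2 libraries). In every group the cells carrying GFP were sorted 24 hours after transfection. The labels do not name the mutation, and they do not say whether the knockout line is 1 clone. The knockout line was kept in medium with 300 µg/mL of the antibiotic G418 and the parental line was not, so that genotype, line and G418 cannot be told apart in the comparison of the lines. The labels do not say whether the replicates were grown apart, so a p-value here speaks for the spread among the sequenced samples alone, and that spread may be technical.

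Metallothioneins are small cysteine-rich proteins that bind zinc and copper ions and buffer them inside the cell. When free zinc rises, MTF1 binds it through its zinc fingers and binds metal response elements in the promoters of the metallothionein genes and of SLC30A1, and their transcription increases. SLC30A1 sits in the plasma membrane and moves zinc out of the cell, while importers of the SLC39 family move zinc into the cytosol. Metallothionein genes also respond to glucocorticoids and to oxidative and heavy metal stress.

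The metallothionein members lie together on chromosome 16 (GRCh38). MT2A is at chr16:56608199-56609497, MT1E at chr16:56625475-56627112, MT1M at chr16:56632233-56633986, MT1F at chr16:56657694-56660698, MT1G at chr16:56666731-56668065 and MT1X at chr16:56682424-56684196. MT1G is on the minus strand and the others are on the plus strand. On chromosome 1, both on the minus strand, are MTF1 at chr1:37809567-37859620, with 11 exons in its main transcript, and SLC30A1 at chr1:211571568-211578742, with 2. The annotated coding sequences (GENCODE 29, stop codon left out) of the 3 most abundant metallothioneins are shown because their likeness bears on how reads can be assigned among them. Each has 61 codons, 20 of them for cysteine. Capitals mark the bases that differ from MT1E.
MT1E: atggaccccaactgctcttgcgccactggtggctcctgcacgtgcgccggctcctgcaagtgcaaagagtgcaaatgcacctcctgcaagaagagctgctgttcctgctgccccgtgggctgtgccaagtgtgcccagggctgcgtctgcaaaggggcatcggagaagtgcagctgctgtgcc
MT2A: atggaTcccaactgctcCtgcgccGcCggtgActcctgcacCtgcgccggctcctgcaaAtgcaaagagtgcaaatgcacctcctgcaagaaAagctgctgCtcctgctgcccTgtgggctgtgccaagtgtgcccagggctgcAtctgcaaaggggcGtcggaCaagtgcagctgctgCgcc
MT1X: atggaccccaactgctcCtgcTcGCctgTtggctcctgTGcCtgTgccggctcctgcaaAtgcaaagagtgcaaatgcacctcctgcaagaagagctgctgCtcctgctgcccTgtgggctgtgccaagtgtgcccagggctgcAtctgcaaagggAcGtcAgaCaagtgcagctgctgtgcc
MT2A differed from MT1E at 14 of 183 bases (92.3% identity), and MT1X differed from MT1E at 17 (90.7% identity).

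Sharing over whole transcripts was counted as exact stretches, a measure that cannot be set against the identity of the coding parts. Of all stretches of 50 bases in the main transcript, 5.34% in MT1E, 4.88% in MT2A, 3.59% in MT1F and 7.05% in MT1M also occur in a transcript of another annotated gene, against 20.2% in MT1G and 45.1% in MT1X. For MT1X, 117 of the shared stretches lie in AC026461.1, a transcript of the same strand that overlaps it; under the name RP11-343H19.2 it was listed at no more than 0.0339 scaled FPKM in any library. The SLC30A1 transcript shared none of its 5425 stretches and MTF1 shared 0.644%. Levels of single metallothioneins, MT1X above all, are uncertain to the extent that the counting split shared reads.

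Promoters of SLC30A1, MT2A and MT1X are shown for the metal response element, the sequence that MTF1 binds. They are the 250 bases before the RefSeq start (GRCh38.p14), read 5′ to 3′ on the gene's strand: chr1:211579162-211579411 on the minus strand for SLC30A1, chr16:56608334-56608583 on the plus strand for MT2A and chr16:56682220-56682469 on the plus strand for MT1X. Capitals mark each match of the element's core, TGCACNC or TGCGCNC, on either strand.
SLC30A1: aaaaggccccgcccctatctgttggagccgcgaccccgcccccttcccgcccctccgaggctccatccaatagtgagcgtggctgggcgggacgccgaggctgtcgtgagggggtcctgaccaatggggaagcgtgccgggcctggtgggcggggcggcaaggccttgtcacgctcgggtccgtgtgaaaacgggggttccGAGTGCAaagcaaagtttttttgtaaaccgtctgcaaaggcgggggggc
MT2A: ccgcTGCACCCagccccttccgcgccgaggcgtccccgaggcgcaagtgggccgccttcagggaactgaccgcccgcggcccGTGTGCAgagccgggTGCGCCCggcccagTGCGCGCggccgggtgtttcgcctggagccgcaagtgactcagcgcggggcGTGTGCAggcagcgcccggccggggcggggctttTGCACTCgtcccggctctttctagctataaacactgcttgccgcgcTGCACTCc
MT1X: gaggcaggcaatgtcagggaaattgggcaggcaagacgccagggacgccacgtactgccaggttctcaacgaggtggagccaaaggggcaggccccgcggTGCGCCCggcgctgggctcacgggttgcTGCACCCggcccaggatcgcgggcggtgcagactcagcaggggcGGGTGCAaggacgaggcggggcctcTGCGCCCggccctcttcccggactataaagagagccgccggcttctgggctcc
The window held 7 matches in MT2A, 4 in MT1X and 1 in SLC30A1, 49 bases before the start. The MTF1 window, chr1:37859593-37859842, held none of these letters. Only these 4 of the 8 members had a window in the promoter set used, so MT1E, MT1F, MT1G and MT1M were not searched. Outside the members, the MT1H window held 8 matches and the MT1B window 3. MT1H RNA was at no more than 2.497 scaled FPKM in any library and MT1B RNA at 0, so the match count did not follow the RNA level. Of all 35116 promoter windows of the same length, 24.8% held at least 1 match, 1.58% held 3 or more and 0.12% held 5 or more. A match is a description of the sequence and not a measured binding site. The counts and the distance hold for the RefSeq starts, which differ from the gene starts in the coordinates given above. By those coordinates the MT2A window lies inside the MT2A locus, and the SLC30A1 window does not adjoin the SLC30A1 locus.

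KDM5A RNA was read first as a check of the labels. Its mean scaled level was 1736 times that of the empty-vector knockout cells with the mutant plasmid and 1136 times with the wild-type plasmid. It was 12.2, 15.3 and 12.3 scaled FPKM in the empty-vector knockout libraries, against 13.3 and 17.7 in the parental libraries, so the level of the whole gene did not separate the lines (limma, adjusted p = 0.391) and does not check the knockout label. With the mutant plasmid the KDM5A mean was 152.9% of that with the wild-type plasmid, and the libraries did not overlap (log2 fold change 0.62, limma adjusted p = 0.0926). Mutation and KDM5A RNA level therefore cannot be told apart wherever mutant and wild-type KDM5A are compared below. The deposited values are labelled FPKM, by name a fragment count corrected for transcript length and library total. On the linear scale they summed to between 999975 and 1000008 in every library, so each is a share of about the same total. Scaled FPKM is the deposited value summed per symbol and divided by 1 median-ratio factor per library, which ran from 0.844 to 1.109. The deposited values carry no read counts, so the depth of each library is unknown. Transcripts of ribosomal proteins made up 14.9% and 15.4% of the mutant libraries, 12.4 to 12.96% of the wild-type libraries, 12.02 to 12.7% of the empty-vector knockout libraries and 13.3% and 15.5% of the parental libraries. Epithelial markers were present, EPCAM, CDH1, KRT8 and KRT18 among them, but VIL1 and LGR5 were below 1 in every library; CD3E of T cells and TTR of hepatocytes were near 0. Of the 4 leukocyte markers only CD68 passed the filter on low values, at 7.96 to 21.0 scaled FPKM across the libraries and higher in empty-vector knockout than in parental cells (limma, adjusted p = 0.0481). Of the 4 fibroblast markers only COL1A1 did, at 13.5 to 28.7 and lower with mutant KDM5A than with the empty vector (limma, adjusted p = 0.0440). No endothelial marker of 3 passed the filter. Of the 3 hepatocyte markers 2 passed it, both at low levels, and TTR did not. ALB was at 0.147 to 1.29 scaled FPKM across the libraries and APOA1 at 0.988 to 2.61. The summed level of the 8 epithelial markers was 3691 to 4068 in mutant and 3127 to 3287 in wild-type libraries. It was 2966 to 3023 in empty-vector knockout and 2692 to 3104 in parental libraries. KRT8 and KRT18 made up most of the sum. Of 6 epithelial markers tested, 3 (EPCAM, KRT8 and KRT18) passed as higher with mutant KDM5A against the empty vector, beside 9.48% of all genes. KRT8 and KRT18 turned lower with quantile normalization, and EPCAM on the values as deposited. CDH1 had means of 53.6 and 54.4 in these 2 groups. The part of these differences in the results below was not tested. In bulk RNA, fewer cells that express a gene and less RNA per cell cannot be told apart.

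SLC30A1 was lower with either KDM5A plasmid than with the empty vector, and it did not differ between the plasmids beyond the spread. Its level was 10.7 and 9.47 scaled FPKM in the mutant libraries, 10.2, 9.99 and 10.9 in the wild-type libraries, 16.6, 17.0 and 17.2 in the empty-vector knockout libraries, and 18.7 and 15.5 in the parental libraries. All 5 libraries with a KDM5A plasmid lay below all 5 libraries with the empty vector. With mutant KDM5A it fell to 59.5% of the empty-vector mean (log2 fold change -0.70 ± 0.10, SE; 95% interval -0.92 to -0.47), and limma gave an adjusted p of 0.00505 (Benjamini-Hochberg, across all 17779 genes that entered the fit). With wild-type KDM5A it fell to 61.2% (log2 fold change -0.66 ± 0.09, SE; 95% interval -0.86 to -0.46; limma, adjusted p = 0.00672). The 2 comparisons share the empty-vector libraries, so they are not independent of each other.

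Between mutant and wild-type KDM5A, SLC30A1 differed by -0.04 on the log2 scale, with a 95% interval of -0.26 to 0.19 (limma, adjusted p = 0.867). Between empty-vector knockout and parental cells it differed by -0.01, with an interval of -0.23 to 0.21 (limma, adjusted p = 0.967). Neither interval reaches the change measured with either plasmid against the empty vector. The wild-type call passed under all 15 alternative settings run, with log2 fold changes of -0.77 to -0.62. The mutant call passed under 12 of 13 and was lost with the ribosomal protein share as a covariate (log2 fold change -0.39, limma adjusted p = 0.433). That share was 14.9% and 15.4% in the mutant libraries and 12.02 to 12.7% in the empty-vector knockout ones, so share and plasmid can hardly be told apart. In that setting 15 of all genes passed, against 2939 without the covariate, so it cannot decide the mutant call.

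**Figure D1:**
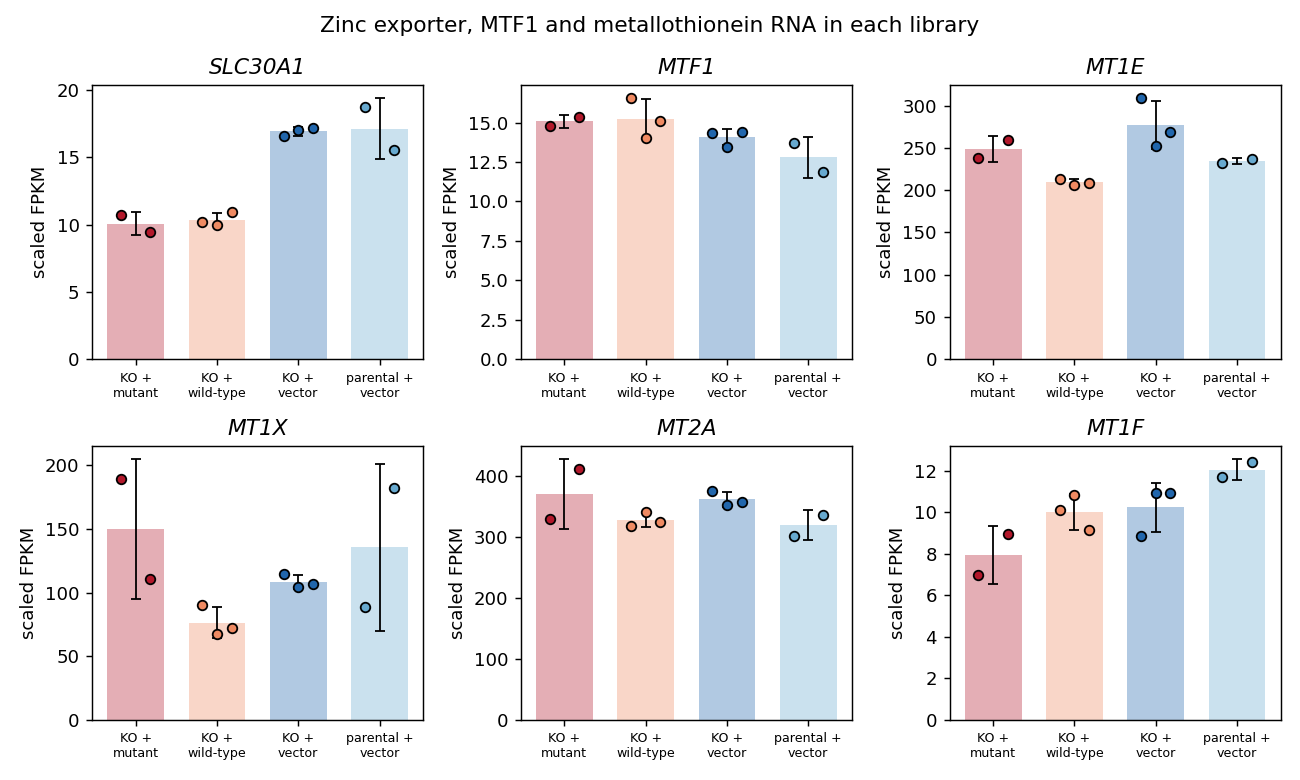
Scaled FPKM of the 6 genes with measurable levels, by group. Bars are group means, error bars the SD and points the libraries. SLC30A1 lies between 9.47 and 10.9 in the 5 libraries with a KDM5A plasmid and between 15.5 and 18.7 in the 5 with the empty vector, while MT1X is high in mutant replicate 1 and parental replicate 2.

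SLC30A1 was also low relative to other zinc transporters of the same libraries, a ratio that a single factor per library leaves as it is. As a percentage of the mean of SLC30A5, SLC30A6, SLC30A7 and SLC30A9, which load zinc into organelles or act within the cell, it was 35.2 and 36.4 in the mutant libraries and 30.3, 31.7 and 31.5 in the wild-type libraries. The same percentage was 49.5, 54.7 and 53.8 in the empty-vector knockout libraries and 60.7 and 56.0 in the parental libraries. The plasmid and empty-vector libraries did not overlap in this ratio. It reuses the SLC30A1 values given above, so it is not separate support for the call. SLC30A6, SLC30A7 and SLC30A9 in the denominator were named after their values were seen. SLC30A5 in the denominator was itself lower with mutant KDM5A, as given below.

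MTF1, the sensor itself, did not pass in any comparison. Its level was 14.8 and 15.4 scaled FPKM in the mutant libraries, 16.6, 14 and 15.1 in the wild-type libraries, 14.4, 13.5 and 14.4 in the empty-vector knockout libraries, and 13.7 and 11.9 in the parental libraries. Both mutant libraries lay above the empty-vector knockout and parental ones, the wild-type libraries overlapped the empty-vector knockout ones, and empty-vector knockout and parental libraries overlapped each other. The log2 fold change was 0.09 with mutant KDM5A (95% interval -0.12 to 0.31; limma, adjusted p = 0.546) and 0.10 with wild-type KDM5A (-0.09 to 0.30; limma, adjusted p = 0.563). Against parental cells the empty-vector knockout cells differed by 0.13 (-0.09 to 0.35; limma, adjusted p = 0.435).

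Of the metallothioneins, MT2A, MT1E and MT1X made up nearly all the RNA, and MT1F was at a low level. MT1G, which is known from liver, kidney and gut, was listed at 0 in all 10 libraries. MT1M was listed at 0 in 9 libraries and at 0.192 scaled FPKM in empty-vector knockout replicate 3. Both fell below the filter on low values, at least 1 scaled FPKM in at least 2 libraries, so that 6 of the 8 genes were tested. The 6 passed the filter in every group, not through 1 group.

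MT1E passed with wild-type KDM5A, where it was lower. Its level was 238 and 259.5 scaled FPKM in the mutant libraries, 213, 206 and 209 in the wild-type libraries, 309, 253 and 269 in the empty-vector knockout libraries, and 232 and 237 in the parental libraries. The 3 wild-type libraries were the lowest of the 10, and the mutant libraries overlapped the empty-vector knockout ones. With wild-type KDM5A, MT1E fell to 75.5% of the empty-vector mean (log2 fold change -0.40 ± 0.07, SE; 95% interval -0.56 to -0.24; limma, adjusted p = 0.0200). With mutant KDM5A the log2 fold change was -0.15 (95% interval -0.33 to 0.03; limma, adjusted p = 0.232), and mutant against wild-type it was 0.25 (0.07 to 0.43; limma, adjusted p = 0.146). The mutant value depended on the scaling. MT1E was lower and passed with mutant KDM5A at -0.49 as deposited (limma, adjusted p = 0.00356) and at -0.42 with quantile normalization (limma, adjusted p = 0.0154). Mutant against wild-type it was then 0.02 and 0.09. With these scalings the median of all genes was -0.30 and -0.03 with mutant KDM5A, and -0.19 and -0.02 mutant against wild-type. A change of MT1E with wild-type KDM5A and not with mutant KDM5A is therefore not shown. In empty-vector knockout against parental cells it was 0.24 (0.05 to 0.42; limma, adjusted p = 0.105).

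The wild-type call of MT1E was narrow. It was lost without the filter on low values (limma, adjusted p = 0.0531) and with a replicate block (limma, adjusted p = 0.0722). Without wild-type replicate 1, 2 or 3 the limma adjusted p was 0.0711, 0.0851 and 0.0769, and without empty-vector knockout replicate 3 it was 0.0686. MT1E was lower with wild-type KDM5A under every alternative.

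MT2A, the most abundant metallothionein, did not pass in any comparison with the median-ratio scaling. Its level was 330.1 and 411.5 scaled FPKM in the mutant libraries, 319, 341 and 325 in the wild-type libraries, 376, 352 and 357 in the empty-vector knockout libraries, and 302 and 337 in the parental libraries. The wild-type libraries lay below the empty-vector knockout ones, the mutant libraries lay on both sides of them, and the parental libraries lay below them. The log2 fold change was 0.03 with mutant KDM5A (95% interval -0.18 to 0.23; limma, adjusted p = 0.862) and -0.14 with wild-type KDM5A (-0.32 to 0.05; limma, adjusted p = 0.383). In empty-vector knockout against parental cells it was 0.18 (-0.03 to 0.39; limma, adjusted p = 0.254). The sign of the mutant value depended on the scaling: on the values as deposited it was -0.31 (limma, adjusted p = 0.0234), where the median of all genes was -0.30, and with quantile normalization it was -0.32 (limma, adjusted p = 0.0418), where the median of all genes was -0.03.

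MT1X varied most among the metallothioneins. Its level was 189 and 111 scaled FPKM in the mutant libraries, 89.9, 67.6 and 71.8 in the wild-type libraries, 115, 104 and 107 in the empty-vector knockout libraries, and 89.0 and 182 in the parental libraries. Mutant replicate 1 and parental replicate 2 stood above the other 8 libraries, and the wild-type libraries lay below the empty-vector knockout ones. The log2 fold change was 0.41 ± 0.29 (SE) with mutant KDM5A (limma, adjusted p = 0.370) and -0.51 ± 0.26 (SE) with wild-type KDM5A (limma, adjusted p = 0.319). The wild-type value passed when only the libraries compared entered the fit (limma, adjusted p = 0.0339), which leaves out both high libraries.

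The 2 libraries with high MT1X also stood apart in MT1X relative to MT2A. The ratio of MT1X to MT2A was 0.572 and 0.269 in the mutant libraries, 0.282, 0.199 and 0.221 in the wild-type libraries, 0.305, 0.296 and 0.299 in the empty-vector knockout libraries, and 0.295 and 0.541 in the parental libraries. The ratio of MT1E to MT2A was 0.721 and 0.631 in the mutant libraries, 0.668, 0.605 and 0.642 in the wild-type libraries, 0.821, 0.719 and 0.755 in the empty-vector knockout libraries, and 0.767 and 0.703 in the parental libraries. In that second ratio, mutant replicate 1 and parental replicate 2 lay within the range of the other 8 libraries.

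MT1F did not pass in any comparison with the median-ratio scaling. Its level was 6.96 and 8.95 scaled FPKM in the mutant libraries, 10.1, 10.8 and 9.12 in the wild-type libraries, 8.88, 10.9 and 10.9 in the empty-vector knockout libraries, and 11.7 and 12.4 in the parental libraries. The parental libraries were the highest, and the mutant libraries lay below the wild-type ones and overlapped the empty-vector knockout ones. The log2 fold change with mutant KDM5A was -0.33 (95% interval -0.63 to -0.03; limma, adjusted p = 0.123). As deposited it was -0.64 (limma, adjusted p = 0.0104), where the median of all genes was -0.30. With wild-type KDM5A the log2 fold change was -0.03 (-0.30 to 0.24; limma, adjusted p = 0.934).

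**Figure D2:**
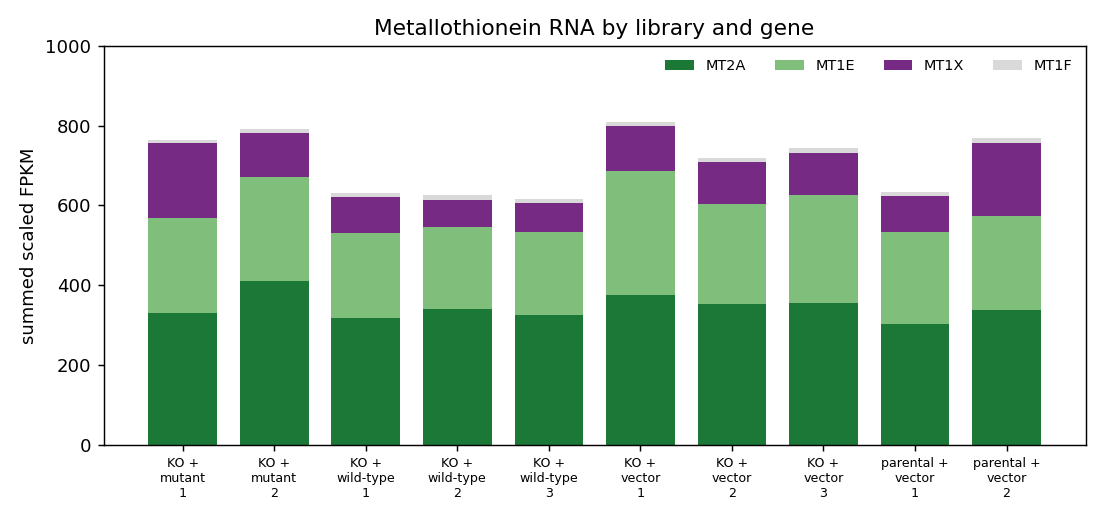
Scaled FPKM of MT2A, MT1E, MT1X and MT1F, stacked for each library, with the groups side by side. The wild-type libraries sum to 615 to 631.5 and the empty-vector knockout libraries to 719.6 to 809, and MT1X takes its largest share in mutant replicate 1 and parental replicate 2.

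The 6 metallothioneins summed to 764 and 791 scaled FPKM in the mutant libraries, 631.5, 625 and 615 in the wild-type libraries, 809, 719.6 and 743.5 in the empty-vector knockout libraries, and 634 and 768 in the parental libraries. The means were 777 ± 18.95 with mutant KDM5A, 624 ± 8.31 with wild-type KDM5A, 757 ± 46.2 in empty-vector knockout cells and 701 ± 94.5 in parental cells (SD, n = 2, 3, 3 and 2). On this scale all wild-type libraries were below all others, though parental replicate 1 was close to them. As a share of the deposited total the 6 genes made up 0.0645% and 0.0689% in the mutant libraries, 0.0647%, 0.0618% and 0.0613% in the wild-type libraries, 0.0864%, 0.0798% and 0.0805% in the empty-vector knockout libraries, and 0.0691% and 0.0740% in the parental libraries. By that share the mutant libraries overlapped the wild-type ones and both lay below the empty-vector knockout ones, so the place of the mutant group depended on the scaling. MT2A held 43.2 to 54.5% of the sum across the libraries, MT1E 30.8 to 38.2% and MT1X 10.8 to 24.7%. As the members were chosen with earlier results known, no p is given for the sum.

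Counted over the tested members, 1 of 6, SLC30A1, passed with mutant KDM5A against the empty vector (4 on the values as deposited and 3 with quantile normalization), where 16.5% of all genes passed in either direction (9.48% higher and 7.05% lower). With wild-type KDM5A against the empty vector 2 of 6, SLC30A1 and MT1E, passed, both lower, where 4.54% of all genes passed (2.52% higher and 2.02% lower). Mutant against wild-type KDM5A, 0 of 6 passed in limma where 0.0562% of all genes did (0.0337% higher and 0.0225% lower). Of the 6, 3 (MT1E, MT1F and MT1X) had an unadjusted limma p under 0.05, beside 3583 of all 17779 genes. Empty-vector knockout against parental cells, 0 of 6 passed in limma where 8.94% of all genes did (4.84% higher and 4.09% lower). Of the 6, 1, MT1E, had an unadjusted limma p under 0.05, beside 4576 of all 17779 genes. The members' median log2 fold change was -0.06, -0.27, 0.08 and 0.06 in these 4 comparisons in the order given, and the median of all genes was -0.01, 0.00, 0.00 and 0.00.

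**Figure D3:**
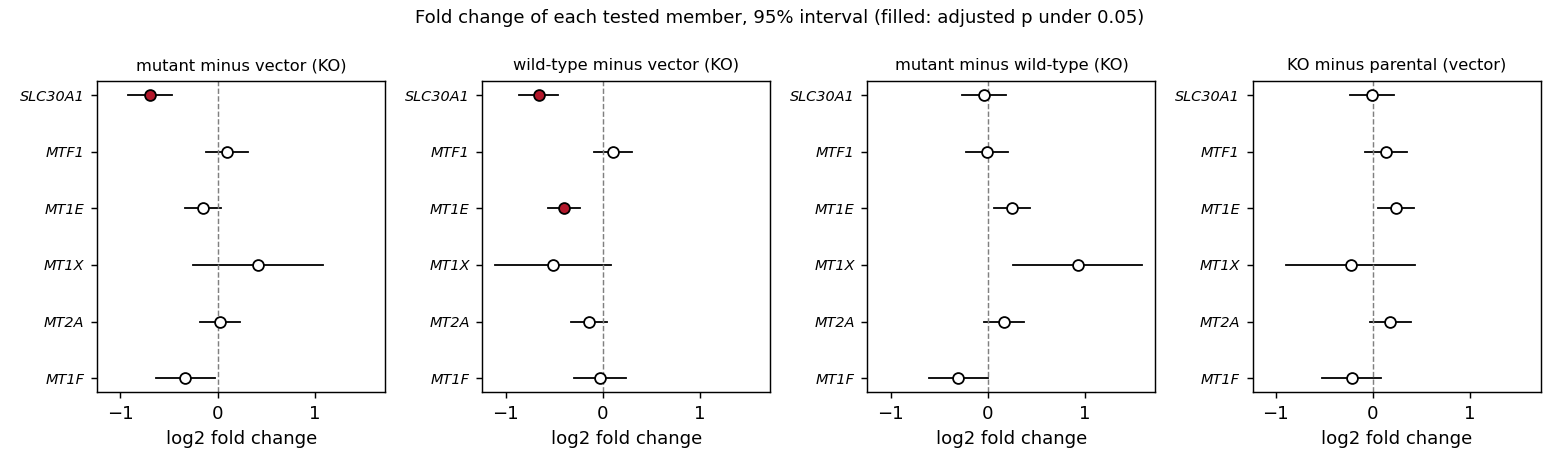
Log2 fold change with its 95% interval for each tested member in the 4 comparisons; filled points passed at adjusted p under 0.05. SLC30A1 is filled and lower with both plasmids against the empty vector, MT1E is filled with wild-type KDM5A against the empty vector, and no point is filled in the other 2 comparisons.

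Of the other metallothionein genes, 15 listed and 14 in the tables, 3 were tested: MT1P3, MT1XP1 and MT1H. MT1P3, a processed pseudogene, was 0 and 0 scaled FPKM in the mutant libraries, 0, 57.4 and 128 in the wild-type libraries, 243, 35.7 and 54.6 in the empty-vector knockout libraries, and 0 and 0 in the parental libraries. It spans 177 bases at chr20:35218009-35218185 on the plus strand, inside MMP24OS on the other strand, and its sequence is 89.8% identical to the MT1E coding sequence, with 30 stretches of 50 bases in common with MT1E. It passed with mutant KDM5A (limma, adjusted p = 0.0386), which rests on values listed at 0 and held under 5 of 13 alternatives. MT1H, a metallothionein of the same cluster, was at 1.496 and 2.497 in the mutant libraries, 0.147, 1.17 and 0.269 in the wild-type libraries, 0.503, 0.628 and 0.259 in the empty-vector knockout libraries, and 0 and 1.43 in the parental libraries. The mutant libraries were the highest, but MT1H did not pass with mutant KDM5A against the empty vector (log2 fold change 1.02; limma, adjusted p = 0.122). MT1XP1 was at 26.5 in wild-type replicate 1, 25.8 in empty-vector knockout replicate 2 and 0 elsewhere, and MT2P1, which was not tested, was at 43.8 in empty-vector knockout replicate 3 and 0 elsewhere. MT1P3, MT1XP1 and MT2P1 each share sequence with a measured metallothionein, so their reads cannot be told apart with certainty.

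Of 6 tested zinc exporters other than SLC30A1, 2 passed with mutant KDM5A, both lower, and 0 passed in limma with wild-type KDM5A, of which 0 had an unadjusted p under 0.05. Over all genes 7.05% passed as lower with mutant KDM5A and 2.02% with wild-type KDM5A. With wild-type KDM5A 3645 of all 17779 genes had an unadjusted limma p under 0.05. SLC30A5, which loads zinc into the secretory pathway, was 44.5 and 40.5 scaled FPKM in the mutant libraries, against 56.7, 54.4 and 57.6 in the empty-vector knockout libraries (log2 fold change -0.40; limma, adjusted p = 0.0412). SLC30A4, a vesicle transporter, was 1.49 and 1.36 in the mutant libraries, against 2.30, 2.87 and 3.21 in the empty-vector knockout libraries (log2 fold change -0.64; limma, adjusted p = 0.0462). The call of SLC30A5 held under 5 of 13 alternatives and that of SLC30A4 under 2 of 12. For both genes the mutant libraries lay below the empty-vector knockout ones. The parental libraries were at 51.1 and 40.2 scaled FPKM for SLC30A5, where they overlapped the mutant ones. For SLC30A4 they were at 3.38 and 2.43, above the mutant ones.

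Among zinc importers, SLC39A6, a plasma membrane importer, was 92.0 and 82.9 scaled FPKM in the mutant libraries, 87.2, 87.3 and 82.9 in the wild-type libraries, 66.2, 61.8 and 67.9 in the empty-vector knockout libraries, and 92.4 and 79.9 in the parental libraries. The empty-vector knockout libraries were the lowest, and the other 3 groups overlapped. It rose by 0.41 on the log2 scale with mutant KDM5A (limma, adjusted p = 0.0108) and by 0.39 with wild-type KDM5A (limma, adjusted p = 0.0196), and it was lower in empty-vector knockout than in parental cells (log2 fold change -0.39; limma, adjusted p = 0.0176). All 3 comparisons share the empty-vector knockout libraries, which are the low ones. SLC39A10, a relative that pairs with SLC39A6, was 20.7 and 20.3 in the mutant libraries, 22.4, 23.4 and 21.9 in the wild-type libraries, and 17.9, 17.4 and 15.8 in the empty-vector knockout libraries, and it passed with wild-type KDM5A (log2 fold change 0.39; limma, adjusted p = 0.0324). SLC39A6 held under 10 of 13 alternatives with mutant KDM5A, 8 of 15 with wild-type KDM5A and 9 of 14 between the lines, and SLC39A10 held under 6 of 15. Of the 11 importers tested, 1 passed with mutant KDM5A and 2 with wild-type KDM5A, all higher, where 9.48% and 2.52% of all genes passed as higher; with mutant KDM5A the share of importers is near that of all genes.

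**Figure D4:**
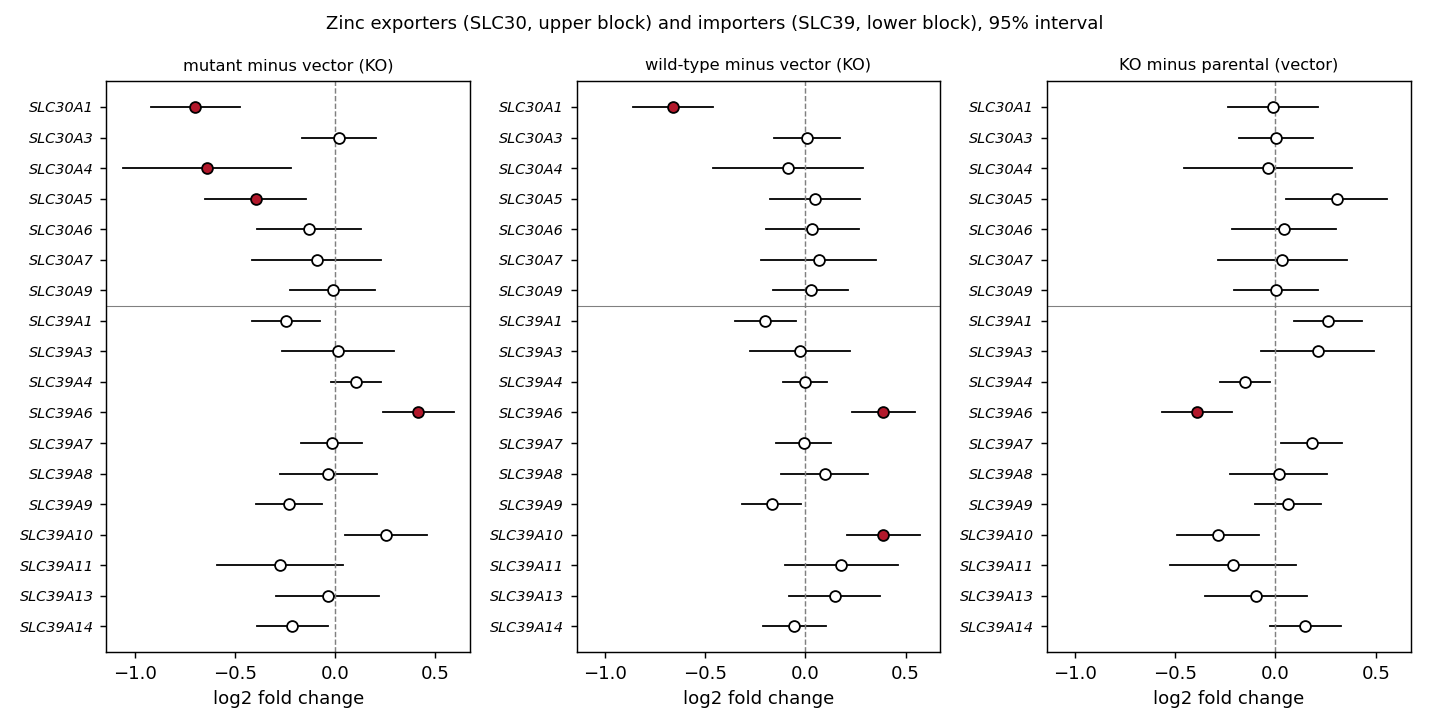
Log2 fold change with its 95% interval for the zinc exporters (SLC30) and importers (SLC39) in 3 comparisons; filled points passed at adjusted p under 0.05. SLC30A1 is the exporter that is filled with both plasmids, and SLC39A6 is the importer filled in all 3 comparisons.

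Copper handling genes were compared because metallothioneins also bind copper. Of 9 tested, 2 passed with mutant KDM5A, both higher, beside 9.48% of all genes: SOD1, the copper-zinc superoxide dismutase, with a log2 fold change of 0.51 (limma, adjusted p = 0.0101), and COX17, the copper chaperone of cytochrome oxidase, with 0.52 (limma, adjusted p = 0.0122). COX17 was 90.5 and 112 scaled FPKM in the mutant libraries, against 72.0, 71.2 and 67.4 in the empty-vector knockout libraries. In empty-vector knockout against parental cells COX17 was lower (log2 fold change -0.49; limma, adjusted p = 0.0203), and the copper chaperone ATOX1 was higher (0.46; limma, adjusted p = 0.0440). Over all genes 8.94% passed in either direction between the lines. SOD1 held under 9 of 13 alternatives and COX17 under 11 of 13 with mutant KDM5A, and between the lines COX17 held under 8 of 14 and ATOX1 under 7 of 14.

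Other genes known to answer to metals, heat or oxidative stress passed in both directions. Of 11 tested, 4 passed as higher and 2 as lower with mutant KDM5A, 5 as higher and 0 as lower with wild-type KDM5A, and 3 each way in empty-vector knockout against parental cells. Over all genes 16.5%, 4.54% and 8.94% passed in either direction in these comparisons. HSPA1A, an inducible heat shock protein, was 925 and 879 scaled FPKM in the mutant libraries, 518, 470.1 and 499.5 in the wild-type libraries, 116, 127 and 120.4 in the empty-vector knockout libraries, and 147 and 233 in the parental libraries. Its log2 fold change against the empty vector was 2.89 with mutant KDM5A and 2.03 with wild-type KDM5A, and the libraries did not overlap (limma, adjusted p = 4.04e-05 and 0.000165). Both calls held, under 13 of 13 and 15 of 15 alternatives. HSPA1A and HSPA1B are near-identical copies, so that their reads can be split between them in counting. The co-chaperone DNAJB1 changed by 1.04 and 0.80 in these comparisons, and NDRG1 by 0.38 in each. SLC7A11, the cystine importer, was 30.2 and 29.6 scaled FPKM in the mutant libraries, against 47.2, 47.0 and 47.3 in the empty-vector knockout libraries (log2 fold change -0.64), and GCLC, the catalytic subunit of the enzyme that starts glutathione synthesis, changed by -0.44. NDRG1 held under 10 of 13 and 7 of 15 alternatives with mutant and wild-type KDM5A, SLC7A11 and GCLC under 12 of 13 each.

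Empty-vector knockout and parental cells differed in HMOX1, the haem-degrading enzyme, which was 133, 130.5 and 129 scaled FPKM in the empty-vector knockout libraries and 84.9 and 86.5 in the parental libraries. The log2 fold change was 0.60 (limma, adjusted p = 0.000282), the libraries did not overlap, and the call held under 14 of 14 alternatives. GCLC and SLC7A11 were higher there by 0.32 and 0.36, and NQO1, HSPA1A and HSPA1B were lower by log2 fold changes of -0.24, -0.61 and -0.41. The call of GCLC held under 5 of 14 alternatives, SLC7A11 under 9, NQO1 under 3 and both heat shock genes under 5. MT1E, at 277 ± 28.9 in empty-vector knockout and 234 ± 3.67 in parental cells (SD, n = 3 and 2), did not pass in this comparison, as given above.

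Glucocorticoid-responsive genes were tested because metallothioneins also answer to these hormones. Of 8 tested, NFKBIA was higher and PER1 lower with mutant KDM5A (log2 fold changes 0.34 and -0.79), and PER1 was lower with wild-type KDM5A (-0.49), beside 16.5% and 4.54% of all genes passing. PER1, a clock gene, was 36.1 and 43.2 scaled FPKM in the mutant libraries, 53.0, 44.5 and 49.4 in the wild-type libraries, and 64.5, 75.6 and 67.2 in the empty-vector knockout libraries. In empty-vector knockout against parental cells DUSP1 and NFKBIA were higher (0.90 and 0.78) and FKBP5 lower (-0.36), beside 8.94% of all genes passing. With mutant KDM5A the call of PER1 held under 12 of 13 alternatives and that of NFKBIA under 6 of 13, turning to just below 0 as deposited; with wild-type KDM5A PER1 held under 8 of 15, and FKBP5 between the lines under 5 of 14. Mutant against wild-type KDM5A no gene of the lists above passed, beside 0.0562% of all genes. For example, 0 of 11 metal-responsive genes passed in limma. Of these 11, 8 had an unadjusted limma p under 0.05, beside 3583 of all 17779 genes.

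The genes whose levels followed the metallothionein sum most closely over the 10 libraries, of 11592 candidates, were ZNF14 (Pearson r = 0.964), HOXB7 (0.945), COIL (0.929), CCT6P1 (0.928) and TCEAL4 (0.916). The 10 libraries share groups, so these correlations describe the pattern across groups as much as across libraries. They were picked as the highest of 11592 values over only 10 libraries. Such picking gives high values by itself, and a link to the metallothioneins was not tested.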

How the data were processed

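Log2(FPKM + 1) values per locus of 10 libraries were deposited by the authors; per the submitters' processing notes STAR 2.7.1a, Picard, GATK 4.1.2 and Cufflinks 2.2.1 were used with GRCh38, and the annotation release, strand setting and order of steps are not given in the sources used here. The values hold no read counts, so no count test was possible and depth and counting error are unknown. They were returned to the linear scale, summed per symbol (60141 loci, 57993 symbols) and divided by a median-ratio factor per library from the 13651 genes at 1 or more in every library. Genes at 1 or more in at least 2 libraries (17779) were tested as log2(scaled FPKM + 1) with limma 3.58.1 in R 4.3.3, all 4 groups in 1 fit with 6 residual degrees of freedom and a trended prior, two-sided, with Benjamini-Hochberg adjustment over all genes in each comparison. A fold change on this scale understates the change of low genes. Python 3.11.15, numpy 2.4.6, pandas 2.3.3 and matplotlib 3.10.9 were used for the rest. The fit was tested on simulated data.

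The members and lists were chosen with earlier results of these data known. Named were all members, KDM5A, listed genes that passed (at most the 4 of smallest p per list and comparison), genes within 200 kb of the cluster (not reported here) and the 5 genes most correlated with the metallothionein sum; NQO1, MT1H, MT1XP1, MT2P1, the markers and the 3 further transporters of the SLC30A1 ratio, and GCLC and NDRG1 with mutant KDM5A and HSPA1A between the lines, fall outside it and were named after their values were seen. Motif matches used the RefSeq promoter windows (GRCh38.p14) and coordinates the GENCODE 29 annotation. Alternatives changed the scaling, the pseudocount, the filter, the libraries in the fit and its covariates.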

Additional observations from a re-analysis of the deposited data

How the results depend on the processing

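SLC30A1 stayed lower with both plasmids against the empty vector under the alternatives run for each (13 and 15). Of the alternative member values, 289 kept their direction and side of the threshold, 28 turned, 6 newly passed and 7 no longer passed; 2 of those that turned, both MT2A with mutant KDM5A, also newly passed. FPKM carries no counts, so what depth limits is not known.

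With mutant KDM5A against the empty vector (2939 genes passing), 6608 genes passed on the values as deposited, 1838 with only the libraries compared, 1109 with a replicate block, 15 with the ribosomal protein share as a covariate and 1215 to 2644 leaving out 1 library. The members passing were 4, 3 and 0 as deposited, with quantile normalization and with the covariate, against 1. With wild-type KDM5A (807 genes), 1689 passed with only the libraries compared, 214 with the replicate block, 1690 without the mutant libraries and parental replicate 2, and 178 to 311 leaving out 1 library; 1 member passed without a filter or with the block and 1 to 2 leaving out 1 library, against 2. Mutant against wild-type (10 genes), 1490 passed as deposited, 6 with quantile normalization, 93 without a filter, 3 with a filter on a mean of 5, 214 with only the libraries compared, 1 each with the replicate block and the covariate, and 5 to 49 leaving out 1 library. Empty-vector knockout against parental (1589 genes), 464 passed with only the libraries compared, 556 with the replicate block, 99 with the covariate, 1047 without the mutant libraries and parental replicate 2 (with 1 member, MT2A), and 685 to 1901 leaving out 1 library. The cause of these moves was not tested.

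Log2 fold changes of members that turned sign were as follows. With mutant KDM5A against the empty vector, MT1X was -0.37 with the covariate, MT2A -0.31 as deposited and -0.32 with quantile normalization (both passing), -0.26 with the covariate and -0.13 to 0.19 leaving out 1 library, and MTF1 was -0.23 as deposited. With wild-type KDM5A, MT1F was 0.0077 with quantile normalization and -0.12 to 0.0319 leaving out 1 library, and MTF1 was -0.0043 as deposited. Mutant against wild-type, MT2A was -0.0585 as deposited, -0.0356 with quantile normalization and -0.0853 with the covariate; MTF1 was 0.0044 with quantile normalization, 0.18 with the covariate and -0.0652 to 0.0486 leaving out 1 library; SLC30A1 was 0.24 with the covariate and -0.12 to 0.0419 leaving out 1 library. Empty-vector knockout against parental, MT1X was 0.35 with the covariate, 0.28 without the mutant libraries and parental replicate 2 and -0.74 to 0.28 leaving out 1 library, MTF1 -0.0248 with the covariate, and SLC30A1 0.0677 as deposited, 0.0105 with quantile normalization and -0.14 to 0.12 leaving out 1 library.

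Same-numbered libraries of different groups did not deviate together, with correlations of -0.045 to 0.051, so the numbers were not taken to pair the libraries and the replicate block is only an alternative.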
